A study of Homo sapiens with 9 samples.

Results

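The S100 genes encode small calcium-binding proteins, and 10 of them were followed here in T47D, an ER+ human breast cancer line, grown with or without signals from bone marrow stroma. The members were taken by symbol: S100A6, S100A7, S100A8, S100A9, S100A10, S100A11, S100A13, S100A14, S100A16 and S100P. They are 10 of the 16 S100 genes with a row in the table and 10 of 27635 gene symbols in all. The members were chosen by measured values of these same libraries, and which values those were is not recorded. Level alone does not give the list, since S100A4, with a mean of 33.3 TPM (a transcript abundance corrected for length and library size) in monoculture, is not on it and S100A14, with 1.82 TPM, is. The values of the members below are therefore descriptions and support nothing further.

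RNA was sequenced from 9 libraries, 3 per condition. In monoculture (MC) T47D cells grew alone. In contact culture (CC) they were seeded as 10% of the cells with 90% mesenchymal stromal cells (MSCs) of the human bone marrow line HS5. In conditioned medium (CMed) they received medium of HS5 cells, whose preparation the labels do not describe. The same growth protocol is given for all samples, 24 hours in medium with 10% serum, then low-glucose medium with 1% serum and 10 nM estradiol until harvest 48 hours later. T47D and HS5 are each 1 established line, and the labels do not say whether the 3 libraries of a condition came from separate cultures, so the errors below may be technical. The labels name recovery on EpCAM beads for co-culture only, so contact with HS5 cells and passage over the beads cannot be told apart in CC. In these bulk samples, fewer cells of a type and less RNA per cell cannot be told apart either.

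S100 proteins fold as a pair of EF-hands, a helix-loop-helix motif that holds calcium, and most work as dimers. On binding calcium they expose a surface that grips a partner, such as an annexin inside the cell. Some are also released and act outside it as alarmins, danger signals read by receptors such as RAGE (gene AGER) and TLR4. S100A8 and S100A9 pair to form calprotectin, which binds zinc and manganese and starves microbes of them. Calprotectin is best known from neutrophils and monocytes, and stressed or inflamed epithelium makes it too. In breast cancer S100A7, S100A8, S100A9 and S100P have long been studied as markers and as proteins that act on migration and inflammation. Most genes of the family sit in a cluster on chromosome 1 at 1q21, and S100P lies apart on chromosome 4.

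The DNA before the start sites of S100A8, S100A9 and S100P is shown because these members moved together, and that of S100A10 because its levels lay in the opposite direction. All 10 members matched the RefSeq promoter table (GRCh38.p14), with 15 windows of 300 bases that run from 250 bases before to 50 bases after a start. The 250 bases before the start are printed 5′ to 3′ on the strand of the gene, and capitals mark TATAAA, the core of the TATA box that many strongly inducible genes carry. They are S100A8 on the minus strand (chr1:153391074-153391323), S100A9 on the plus strand (chr1:153357604-153357853), S100P on the plus strand (chr4:6693628-6693877) and S100A10 on the minus strand (chr1:151993860-151994109).
S100A8: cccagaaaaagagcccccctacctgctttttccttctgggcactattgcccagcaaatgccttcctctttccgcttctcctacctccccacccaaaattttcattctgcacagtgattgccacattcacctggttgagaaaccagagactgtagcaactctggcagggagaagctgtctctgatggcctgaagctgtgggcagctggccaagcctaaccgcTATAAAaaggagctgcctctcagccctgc
S100A9: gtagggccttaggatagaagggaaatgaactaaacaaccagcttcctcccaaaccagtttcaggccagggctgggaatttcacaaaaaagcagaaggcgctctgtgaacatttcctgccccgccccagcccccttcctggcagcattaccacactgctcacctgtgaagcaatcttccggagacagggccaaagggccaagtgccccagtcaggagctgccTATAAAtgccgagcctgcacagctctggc
S100P: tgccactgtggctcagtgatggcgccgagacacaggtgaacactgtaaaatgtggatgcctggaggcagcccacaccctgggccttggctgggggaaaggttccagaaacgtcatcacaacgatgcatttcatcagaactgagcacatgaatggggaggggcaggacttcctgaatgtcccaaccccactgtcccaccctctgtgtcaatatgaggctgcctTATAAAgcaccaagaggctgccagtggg
S100A10: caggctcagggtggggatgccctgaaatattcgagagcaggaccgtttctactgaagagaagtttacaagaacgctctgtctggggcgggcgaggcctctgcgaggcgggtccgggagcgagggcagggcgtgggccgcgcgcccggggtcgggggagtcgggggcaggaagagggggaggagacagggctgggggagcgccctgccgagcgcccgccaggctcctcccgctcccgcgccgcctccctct

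In these stretches TATAAA began 29 bases before the start in S100A8 and S100A9 and 28 bases before it in S100P. S100A8 has 3 windows in the table, and the one printed is the one with TATAAA at 29 bases. Another holds it 126 bases before its start and the remaining one has none. The S100A7 window held it 28 bases before the start, and 1 of the 3 windows of S100A13 held it at 29 bases. In all, 5 of the 15 windows, from 5 members, had TATAAA on the gene strand between 20 and 50 bases before the start, a feature of 2.49% of the 35116 windows of the table. The windows of S100A6, S100A10, S100A11, S100A14 and S100A16 had no TATAAA on either strand, against 11.5% of all windows with at least 1 match on either strand. Only the exact letters were searched, so near forms such as the TATAAG in the S100A6 and S100A14 windows were not counted. The share of G and C in the 250 bases was 53.2% in S100A8, 55.6% in S100A9 and in S100P, and 71.2% in S100A10. In the windows of the other members it ran from 57.2% in S100A16 to 70.0% in S100A6, whose levels did not lie lower in CC or CMed. The share over all windows was not worked out.

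Further motifs were searched on both strands, by their letters alone, and no matches of different motifs overlapped in a member. The STAT motif TTCNNNGAA and the AP-1 motif TGANTCA had no match in the 15 windows, against 7.66% and 7.71% of all windows. The C/EBP motif TTGCNNAA matched 1 window, of S100A11, against 10.5% of all. The loose NF-kB motif (GGG and CC with 5 bases between them) matched 9 of the 15 windows, against 58.7% of all, and S100A9 and S100P were the 2 members without it in any window. The printed S100A8 window had none either, and 1 of its other windows did. These are matches of letters in short windows and say nothing of binding.

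The levels are TPM, which corrects for transcript length, so they can be compared between genes. A gene was tested if it reached 0.5 TPM in at least 3 libraries, which 16696 genes did, and all 10 members did so with at least 2 libraries at that level in each condition. Differences are log2 fold changes of log2(TPM + 1) with their standard error (SE) from limma, and a gene counts as changed at a Benjamini-Hochberg adjusted p under 0.05 over all tested genes. Adding 1 understates the change of low genes. Correlations of log2(TPM + 1) across genes were 0.918 to 0.958 between MC libraries, 0.944 to 0.967 between CC libraries and 0.952 to 0.955 between CMed libraries, and MC replicate 2 was the one furthest from its group. CC replicate 2 had the lowest level of its condition for S100A6, S100A7, S100A8, S100A9, S100A10, S100A11, S100A16 and S100P. Results that turn on either library are given without it. Leaving out MC replicate 2 let more genes pass the threshold in general. It gave 1727 genes in CC against MC, where all libraries gave 833, and 1013 in CMed against MC, where they gave 231.

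S100A8, S100A9 and S100P rose in both stromal conditions, and together they changed what the family's transcripts consist of. These 3 made up 4.27% to 12.7% of the summed TPM of the members in MC, 49.2% to 54.4% in CMed and 48.4% to 54.6% in CC. The sum itself was 1292 to 1645 TPM in MC, 2357 to 2438 in CMed and 2644 to 4327 in CC, with no overlap between conditions. In CC against MC, 3 of 10 members were higher past the threshold, where 2.15% of all tested genes were higher. In CMed against MC the same 3 of 10 were higher, where 0.707% of all tested genes were. No member was lower past the threshold in either comparison, where 2.84% and 0.677% of all genes were, and 6 members in CC and 7 in CMed had an unadjusted p under 0.05 in limma, whichever the direction, where 20.3% and 15.7% of all genes had one. Libraries of CC and MC did not overlap for 5 members above and 2 below, where 9.0% and 15.3% of all genes lay so. Libraries of CMed and MC did not overlap for 3 members above and 3 below, where 6.67% and 14.2% of all genes did so. The median log2 fold change of the members was 0.63 in CC and 0.10 in CMed, beside -0.08 and -0.10 over all tested genes, and both comparisons share the MC libraries.

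**Figure D1:**
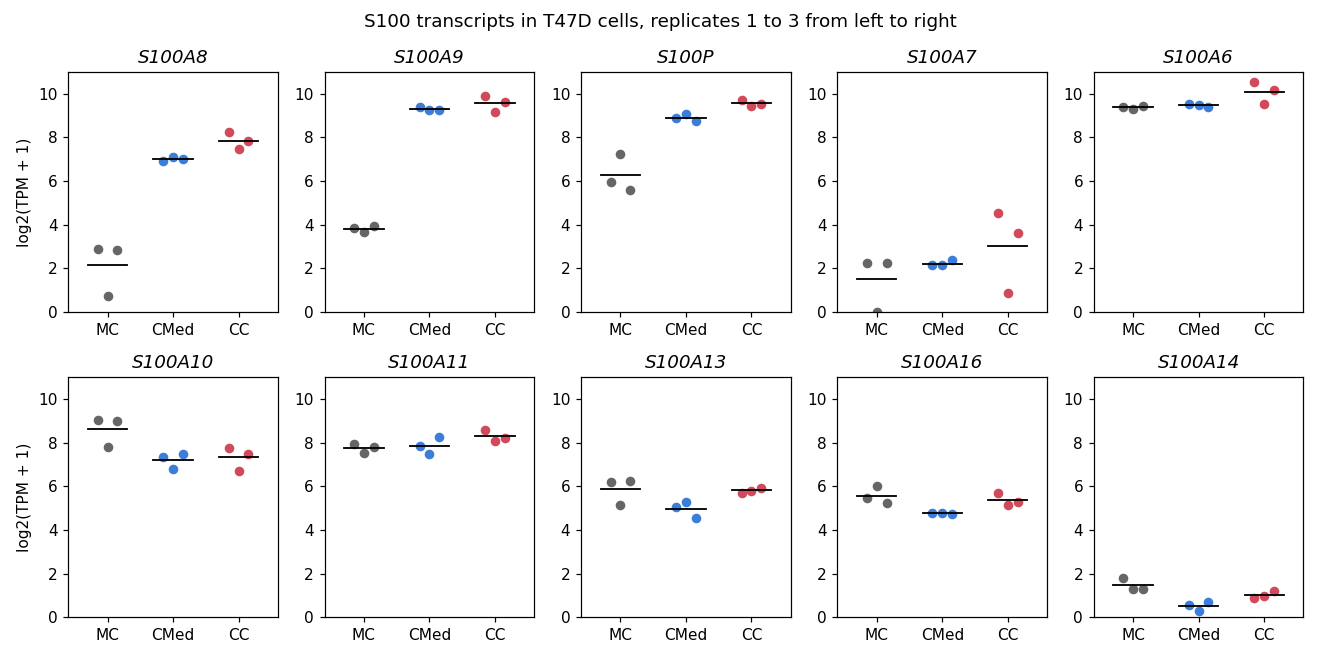
Levels of the 10 members as log2(TPM + 1) in each library, with MC in grey, CMed in blue and CC in red, replicates 1 to 3 from left to right and a line at the mean of 3. S100A8, S100A9 and S100P lie higher in all CMed and CC libraries than in any MC library, and S100A10 lies lower in them.

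S100A9 (ENSG00000163220.10, chr1:153357854-153361027 on GRCh38), the chain of calprotectin that binds its metals together with S100A8, showed the steadiest change of the family. Its levels in MC replicates 1 to 3 were 13.5, 11.9 and 14.4 TPM. In CMed they were 661, 602 and 608 TPM, and in CC they were 960, 566 and 785 TPM. Every stromal library was far above every MC library, while CC and CMed overlapped through CC replicate 2. The mean rose from 13.3 ± 1.29 TPM (SD, n = 3) to 624 ± 32.2 in CMed and 771 ± 197 in CC, which is 47.1 and 58.1 times the MC mean. On the log2 scale these were rises of 5.46 and 5.73, each with an SE of 0.19. S100A9 moved from the seventh highest of the 10 members in MC to the second highest in both stromal conditions, where its range overlapped those of S100A6 and S100P in CC and no neighbour's in CMed.

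S100A8 (ENSG00000143546.9, chr1:153390032-153391188), the other chain of calprotectin, followed it at a lower level. Its levels were 6.43, 0.689 and 6.14 TPM in MC, 118, 135 and 129 TPM in CMed, and 306, 177 and 226 TPM in CC. The 3 conditions did not overlap, in the order MC, CMed, CC, and MC replicate 2 was nearly empty of the transcript. S100A8 rose by 4.84 ± 0.50 (log2, SE) in CMed and by 5.69 ± 0.50 in CC. Without MC replicate 2 these values were 4.14 and 4.99, and both remained past the threshold.

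The ratio of the 2 calprotectin transcripts, which no scaling between libraries can alter, was not constant. S100A9 exceeded S100A8 by a factor of 2.1, 17.2 and 2.35 in the MC libraries, the middle value resting on the low S100A8 of replicate 2. The factor was 5.59, 4.45 and 4.7 in CMed and 3.13, 3.2 and 3.47 in CC, so that CC lay below CMed without overlap. S100A12, the third member of the calgranulin group, has its gene between them on the chromosome and was listed at 0 in 7 of 9 libraries, with at most 0.653 TPM. The reading of S100A8 and S100A9 as transcripts of myeloid cells was checked against 11 markers of such cells. Of these, 8 had a row and 1 was tested. Their summed level was 0.745 to 1.19 TPM in MC, 0.483 to 0.683 in CMed and 1.28 to 1.63 in CC, which lay above the others without overlap. PTPRC (CD45) and ITGAM (CD11b) did not exceed 0.203 TPM.

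S100P (ENSG00000163993.6, chr4:6693069-6697170), first found in placenta and often high in gland-forming cancers, binds ezrin and RAGE. It was already expressed in MC, at 61.1, 152 and 48 TPM. Its levels were 477, 544 and 426 TPM in CMed and 827, 701 and 737 TPM in CC. The 3 conditions did not overlap, and MC replicate 2, low in S100A8, was the highest of the MC libraries here. S100P rose by 2.63 ± 0.36 (log2, SE) in CMed and by 3.28 ± 0.36 in CC, or 5.54 and 8.68 times the MC mean. Without MC replicate 2 the values were 3.13 and 3.77. In a fit of the 6 MC and CMed libraries alone, the difference in CMed missed the threshold with the same fold change.

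**Figure D2:**
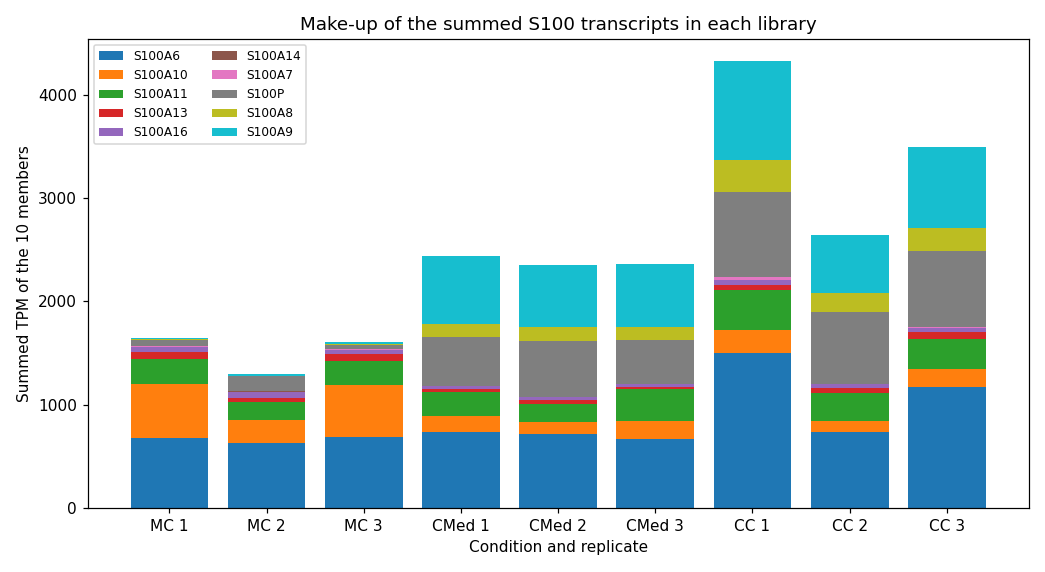
Summed TPM of the 10 members in each library, stacked by member. S100A6, S100A10 and S100A11 fill most of the MC bars, and S100A8, S100A9 and S100P together fill about as much as all other members in the CMed and CC bars, between 48.4% and 54.6% of each.

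S100A7 (ENSG00000143556.8, chr1:153457744-153460701), called psoriasin from its abundance in psoriatic skin, was low and uneven. Its levels were 3.81, 0 and 3.74 TPM in MC and 3.43, 3.41 and 4.19 TPM in CMed. In CC they were 22.4, 0.837 and 11.3 TPM. Replicates 1 and 3 of CC were the highest of all libraries and replicate 2 was below every CMed library, so the conditions overlapped. The log2 difference between CC and MC was 1.51 ± 0.89 (SE) and did not pass the threshold, and it was 2.58 without CC replicate 2 and 0.76 without MC replicate 2. In CMed the difference was 0.72 ± 0.89, which became -0.03 without MC replicate 2. The near-identical S100A7A, with which reads could be shared, was listed at 0 in 8 of 9 libraries and at 0.0831 TPM in the other.

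S100A10 (ENSG00000197747.8, chr1:151982915-151994390) has lost calcium binding and stays in the active shape, in which a dimer joins 2 annexin A2 molecules at the membrane and receives plasminogen. Its levels lay in the opposite direction to those of the calprotectin genes. They were 525, 223 and 503 TPM in MC, 159, 110 and 179 TPM in CMed and 218, 104 and 178 TPM in CC. All 6 stromal libraries were below all MC libraries, although CC replicate 1 came within 5 TPM of MC replicate 2. The mean was 417 ± 169 TPM (SD, n = 3) in MC, 149 ± 35.3 in CMed and 167 ± 57.7 in CC. The log2 differences of -1.40 ± 0.38 (SE) in CMed and -1.28 ± 0.38 in CC did not pass the threshold over all genes. Without MC replicate 2 they were -1.80 and -1.68 and passed it, as they did with the replicate number as a block. The fit without MC replicate 2 also called more of all genes, 1013 in CMed and 1727 in CC, beside 231 and 833 with all libraries.

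Levels of ANXA2, which encodes annexin A2, were 449 ± 48.6 TPM (SD, n = 3) in MC, 319 ± 30.1 in CMed and 376 ± 18.9 in CC. Its log2 difference was -0.49 ± 0.14 in CMed (limma, adjusted p = 0.13) and -0.25 ± 0.14 in CC (adjusted p = 0.342). The ratio of S100A10 to ANXA2 was 1.12, 0.565 and 1.04 in MC, 0.523, 0.368 and 0.505 in CMed, and 0.586, 0.263 and 0.495 in CC. CMed lay below MC without overlap, and CC overlapped MC through MC replicate 2.

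**Figure D3:**
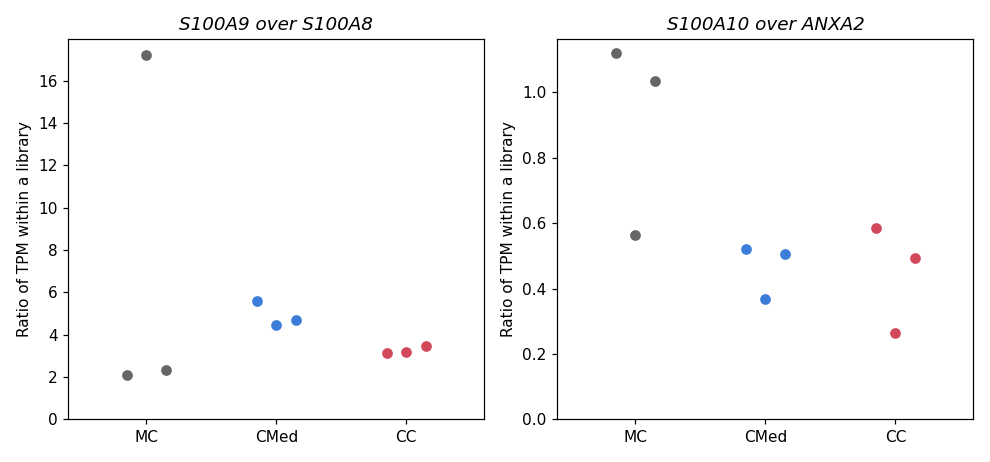
Ratios of TPM within each library, S100A9 over S100A8 on the left and S100A10 over ANXA2 on the right, with 3 libraries per condition and axes that start at 0. The CC libraries lie at 3.13 to 3.47 on the left, below the CMed libraries at 4.45 to 5.59, and MC replicate 2 stands apart in both panels, at 17.2 and 0.565.

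S100A6 (ENSG00000197956.9, chr1:153534599-153536244), or calcyclin, a partner of the calcyclin-binding protein CACYBP and linked to cell growth, was the highest member in every condition. Its levels were 674, 624 and 691 TPM in MC and 733, 718 and 664 TPM in CMed, which overlapped. In CC they were 1505, 736 and 1168 TPM, all above the other 6 libraries, with replicate 2 within 4 TPM of the highest CMed library. The log2 difference was 0.72 ± 0.23 (SE) between CC and MC and 0.09 ± 0.23 between CMed and MC, and neither passed the threshold. Without CC replicate 2 the first was 1.00 and passed it. As S100A6 held or gained while S100A10 lay lower, their ratio was 1.28 to 2.80 in MC, 3.71 to 6.51 in CMed and 6.57 to 7.06 in CC, with no overlap.

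S100A11 (ENSG00000163191.5, chr1:152032506-152047907), a partner of annexin A1 that takes part in membrane repair, stood at 243, 181 and 224 TPM in MC, 226, 179 and 306 TPM in CMed and 386, 269 and 293 TPM in CC. The CC libraries were above the MC libraries, and CMed overlapped both. Its log2 difference was 0.54 ± 0.23 (SE) in CC and 0.11 ± 0.23 in CMed, the latter -0.01 without MC replicate 2 and -0.09 without CMed replicate 3. ANXA1, the gene of annexin A1, was between 0 and 3.12 TPM in all libraries. Pseudogenes of S100A11 could share its reads. The gene overlaps an antisense gene that averaged at most 0.0911 TPM in a condition.

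S100A13, S100A14 and S100A16 lie next to each other on chromosome 1 and shared a low point in CMed. S100A13 (ENSG00000189171.14, chr1:153618787-153631360), which helps FGF1 and IL1A leave the cell without a signal peptide, was at 72.7, 34.4 and 75 TPM in MC, 32.4, 38.3 and 22.6 TPM in CMed and 51.4, 54.2 and 60.1 TPM in CC. S100A16 (ENSG00000188643.10, chr1:153606886-153613145), found in many tissues, was at 43.3, 63.5 and 36.2 TPM in MC, 26.7, 26.2 and 25.3 TPM in CMed and 50.1, 34.1 and 38.5 TPM in CC. S100A14 (ENSG00000189334.8, chr1:153614255-153616986), an epithelial member, was near the lower end of what was measured, at 2.52, 1.48 and 1.47 TPM in MC, 0.504, 0.231 and 0.616 TPM in CMed and 0.823, 0.985 and 1.33 TPM in CC. All 3 CMed libraries were below all MC and CC libraries for S100A14 and S100A16, and for S100A13 they were below CC but reached into MC at replicate 2.

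The log2 differences between CMed and MC were -0.89 ± 0.30 (SE) for S100A13, -0.95 ± 0.24 for S100A14 and -0.81 ± 0.23 for S100A16, none past the threshold. Without MC replicate 2 that of S100A13 was -1.25 and passed it. Between CC and MC they were -0.06 ± 0.30, -0.45 ± 0.24 and -0.20 ± 0.23. No direction can be read for S100A13 and S100A16 in CC, since S100A13 was at 0.07 under relative log expression scaling and S100A16 at 0.03 without MC replicate 2. S100A13 overlaps S100A1 on the other strand by 3435 bases. The kit keeps strand but the use of strand in counting is not given in the sources used here, so their reads may not be cleanly divided. S100A1 averaged at most 0.762 TPM in a condition.

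**Figure D4:**
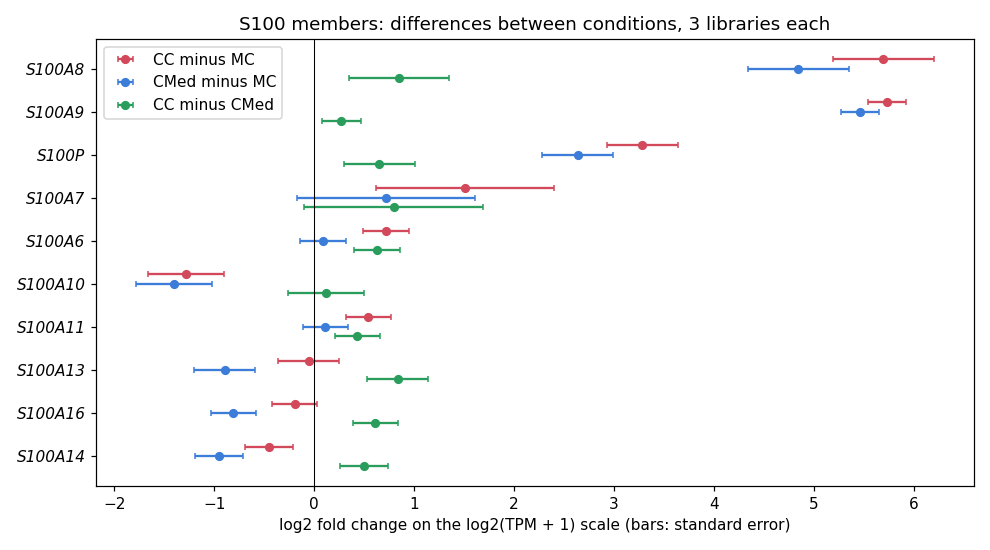
Log2 fold changes of the 10 members on the log2(TPM + 1) scale with standard errors, for CC minus MC in red, CMed minus MC in blue and CC minus CMed in green, 3 libraries per condition. S100A8, S100A9 and S100P stand at 2.63 to 5.73 against MC, S100A10 lies below 0 in both, and every difference between CC and CMed lies between 0.12 and 0.85.

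The comparison of CC with CMed sets contact culture beside the soluble signals, but contact is not all that differs. Recovery on EpCAM beads, any HS5 cells carried along and the undescribed medium cannot be told apart from contact in it. No member passed the threshold in limma in either direction, where 0.210% of all tested genes were higher and 0.162% lower, and 3 members, S100A6, S100A13 and S100A16, had an unadjusted p under 0.05, where 12.2% of all genes had one. All 10 differences were above 0, with a median of 0.62 beside 0.00 over all tested genes. The members were chosen by values of these libraries and share them, so this common direction supports nothing further. Of the tested S100 genes outside the members, S100A1 was at -0.09, S100A2 at 0.61 and S100A4 at 0.24. Libraries of CC were above those of CMed without overlap for 6 of 10 members, S100A6, S100A8, S100A13, S100A14, S100A16 and S100P, where 12.4% of all tested genes were. None lay below without overlap, where 9.93% of all genes did. For S100A9 the difference was 0.27 with a 95% interval of -0.16 to 0.71, for S100A8 it was 0.85 (-0.28 to 1.98) and for S100P 0.65 (-0.15 to 1.45). For S100A10 it was 0.12 (-0.73 to 0.97), and it turned to -0.10 without CC replicate 1 and to -0.08 without CMed replicate 2. Missing the threshold with 3 libraries per condition does not show that contact and conditioned medium act alike on these genes.

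Some markers of stromal cells moved with CC and are given beside these differences. Of 19 stromal markers, all with a row, 8 were tested. In CC against MC 3 of the 8 were higher, VIM, FN1 and CAV1, where 2.15% of all tested genes were. With a library left out, VIM and CAV1 held in all 9 fits and FN1 in 6. VIM and CAV1 were also higher in CC than in CMed (limma, adjusted p = 0.0103 and 0.00867), where 0.210% of all tested genes were. Each of these 2 calls held in 6 of 9 such fits. The list summed to 44.8 to 52.7 TPM in MC, 32.3 to 41.1 in CMed and 55.8 to 72.5 in CC. S100A4 is on that list and takes a large part of the sum. The other 18 markers summed to 14.7 to 17.7 TPM in MC, 16.4 to 18.6 in CMed and 37.8 to 39.5 in CC, so that CC lay above both without overlap. VIM was 0.703 ± 0.557 TPM (SD, n = 3) in MC and 11.7, 6.28 and 9.2 TPM in CC (limma, adjusted p = 0.00288). In CC the libraries ranked 1, 3, 2 for VIM and in the same way for 8 members, all but S100A13 and S100A14. S100A10, which lay lower in CC than in MC, is among the 8. How many of all tested genes had this order was not counted, so nothing is read from it. The collagen genes COL1A2 and COL3A1 did not exceed 0.799 TPM, and POSTN did not exceed 0.0394. S100A4 itself, which mesenchymal cells express strongly, was 34.5, 30.2 and 35 TPM in MC and 33, 17.1 and 20.1 TPM in CC. Whether these transcripts came from HS5 cells, and their part in the CC values, was not tested. In CMed, where S100A8, S100A9 and S100P also rose, VIM was at 0.374, 0.343 and 0.914 TPM.

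T47D cells showed the markers of luminal breast epithelium, with EPCAM at 127 to 206 TPM in all libraries and 12 luminal markers summing to 1812 to 3036 TPM, although TFF1, an estrogen-responsive one, did not exceed 0.658 TPM in MC. TFF1 was higher in CC and CMed, by 2.64 and 3.39 on the log2 scale (limma, adjusted p = 0.00198 and 9.40e-04), and GATA3, a luminal transcription factor gene, was lower in CC, with a log2 difference of -0.93 (adjusted p = 0.00584), each in all 9 fits with a library left out. Of 12 keratinocyte markers, checked because S100A7, S100A8 and S100A9 are typical of activated skin, 3 had a row. KRT10 carried nearly all of their sum, at 33.4 to 128 TPM over all libraries, and IVL stayed at or below 1.24 TPM. Mitochondrial transcripts took 16.7% to 20.5% of the sum in MC, 21.5% to 22.4% in CMed and 23.4% to 26.1% in CC, in the same order as the summed level of the members, and their part in the result was not tested. With mitochondrial and ribosomal RNA left out, S100A8, S100A9 and S100P were higher past the threshold in both comparisons with MC.

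Most of the family lies in 1 stretch of chromosome 1. The 1q21 cluster from S100A10 to S100A1 spans 1.65 Mb (chr1:151982915-153632039, GENCODE 29), with 17 S100 genes, of which 15 have a row and 9 are members. S100A9 and S100A8 lie 29004 bases apart on opposite strands, and they were the 2 genes past the threshold among the 15 of the cluster that were tested. S100A7, the next member along, and S100A6, 73.9 kb beyond it, differed by 1.51 and 0.72 in CC. Of 73 annotated genes of the region outside the family, 19 have a row and 3 were tested, none of them past the threshold, so how far along the chromosome the change reached cannot be read. PGLYRP4, which encodes a peptidoglycan recognition protein, was above MC without overlap in CC and CMed, with means of 0.0617 TPM in MC, 0.950 in CMed and 1.21 in CC (limma, adjusted p = 0.0543 in CC), and IVL and BX470102.2 had adjusted p values of 0.647 and 0.141.

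**Figure D5:**
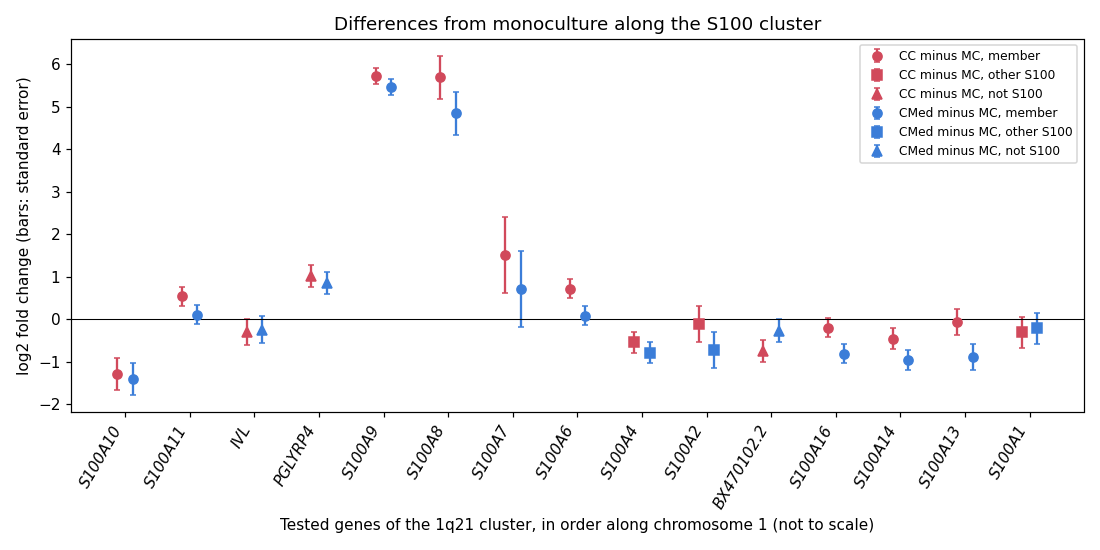
Log2 fold changes against MC with standard errors for the 15 tested genes of the 1q21 cluster, in chromosomal order and not to scale, CC in red and CMed in blue, with circles for members, squares for other S100 genes and triangles for the rest. S100A9 and S100A8 stand at 4.84 to 5.73, and the other genes lie between -1.40 and 1.51.

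Of the family as a whole, 21 symbols were looked for, 16 had a row and 13 were tested. The 3 tested genes that are no members, S100A1, S100A2 and S100A4, were not past the threshold in any comparison. S100A4, known for its part in cell movement and metastasis, was lower in all CMed libraries (15.9, 18.7 and 22.5 TPM) than in all MC libraries, a log2 difference of -0.78. S100A2 had its lowest level in CMed replicate 2, at 0.752 TPM, and its highest in CC replicate 1, at 4.9 TPM. S100A3, S100A12 and S100A7A stayed below the filter, and S100A5, S100A7L2, S100B, S100G and S100Z were not analysed here.

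Genes of proteins that S100 proteins bind did not pass the threshold in limma. Of 23 partner genes, 22 had a row and 18 were tested, and none was called in the 3 comparisons. An unadjusted p under 0.05 was found for 2 of 18 in CC against MC, 7 in CMed against MC and 1 in CC against CMed, where 20.3%, 15.7% and 12.2% of all genes had one. In CMed, 8 of 18 lay below MC without overlap, where 14.2% of all genes did, and the median log2 difference was -0.39 beside -0.10 over all tested genes. CACYBP, the partner of S100A6, was at 163, 81.8 and 151 TPM in MC, 74.7, 70.8 and 72.4 TPM in CMed and 74.6, 69.7 and 72.6 TPM in CC, lower in the stromal libraries without overlap but not past the threshold (limma, adjusted p = 0.0953 in CC). FABP5, which binds S100A7, did not exceed 2.52 TPM (adjusted p = 0.178), and ANXA5 averaged 49.2 TPM in MC and 32 TPM in CC (adjusted p = 0.282). Without MC replicate 2, CACYBP was past the threshold in CC, and CACYBP, ANXA2 and IQGAP1 were in CMed.

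The best known receptors of extracellular S100 proteins were close to absent. AGER, the gene of RAGE, did not exceed 0.166 TPM, TLR4 did not exceed 0.0479 TPM and its co-receptor LY96 was listed at 0 in 8 of 9 libraries. Of 10 receptor genes, 9 had a row and 6 were tested. MCAM, a receptor of S100A8 and S100A9 in melanoma cells, averaged 2.42 ± 0.780 TPM (SD, n = 3) in MC, 0.529 ± 0.338 in CMed and 0.346 ± 0.0358 in CC. It was lower in CC than in MC (limma, adjusted p = 0.0221). In CMed it was below MC without overlap but short of the threshold (adjusted p = 0.0714), which it passed without MC replicate 2. The log2 difference between CC and CMed was -0.16 (adjusted p = 0.861). With 1 library left out at a time, the call in CC against MC held in 4 of 9 fits, with adjusted p from 0.00876 to 0.0939. BSG, ALCAM and CD36 were present, at 24.7, 44.2 and 16.5 TPM in MC, and did not pass the threshold in CC (adjusted p = 0.497, 0.387 and 0.0909).

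Among 12 transcription factor genes known to act on S100A7, S100A8 or S100A9, 9 were tested and 2 were higher in both stromal conditions, CEBPB and CEBPD. Both encode C/EBP factors of the acute phase and of myeloid differentiation. Of all tested genes, 2.15% were higher in CC and 0.707% in CMed. CEBPD was at 8.89, 7.01 and 7.96 TPM in MC, 66.9, 61.5 and 71.9 TPM in CMed and 79.1, 44 and 63.7 TPM in CC, and rose by 2.92 ± 0.22 (log2, SE) in CMed and 2.79 ± 0.22 in CC (limma, adjusted p = 2.94e-04 and 2.06e-04). CEBPB was at 9.22, 10.3 and 9.65 TPM in MC, 39, 39.2 and 47.2 TPM in CMed and 84.4, 37.6 and 54.3 TPM in CC, and rose by 1.99 and 2.40 (adjusted p = 0.00777 and 0.00135). With 1 library left out at a time, these 4 calls held in all 9 fits. NFKB1 did not pass the threshold in CC (limma, adjusted p = 0.267). In CMed NFKB1 lay above MC without overlap, by 0.68 on the log2 scale, and did not pass it either (limma, adjusted p = 0.148).

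Of 16 other epithelial defence genes, 9 had a row and 7 were tested. In each stromal condition 3 of 7 were higher, where 2.15% of all tested genes were higher in CC and 0.707% in CMed. With a library left out the count was 2 to 3 in CC and 1 to 3 in CMed, the lowest in CMed without CMed replicate 1 or CMed replicate 3. LCN2, which withholds iron from bacteria, was at 5.4, 0.328 and 10.1 TPM in MC, 96.8, 85.6 and 128 TPM in CMed and 512, 397 and 411 TPM in CC, a rise of 4.50 ± 0.63 and 6.59 ± 0.63 (limma, adjusted p = 0.0109 and 7.00e-04). The call in CMed held in 7 of 9 fits with a library left out. As with S100A8, its lowest library was MC replicate 2. SLPI, an inhibitor of neutrophil proteases, averaged 1.32 TPM in MC, 32.2 in CMed and 109 in CC (adjusted p = 3.05e-04 and 1.57e-05). CAMP, the precursor of the peptide LL-37, was listed at 0 in MC and at 4.15, 1.12 and 1.51 TPM in CC (adjusted p = 0.0276), a call that held in 6 of 9 fits leaving out a library. LTF, which encodes lactoferrin, averaged 0.0278 TPM in MC and 1.49 TPM in CMed (adjusted p = 0.0424), and held in 2 of those 9 fits. BPIFB1 did not pass the threshold in CC (adjusted p = 0.0909).

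Calcium-binding EF-hand genes outside the family went both ways. Of 27 listed, 24 had a row and 21 were tested, with 2 higher and 3 lower in CC against MC and 1 higher in CC against CMed (NUCB2, the second of the higher genes in CC). The NUCB2 call held in 3 of 9 fits with a library left out in CC against MC and in 2 of 9 in CC against CMed, with adjusted p up to 0.218 in the latter. EFHD1, a mitochondrial EF-hand gene, fell from 83.6 to 29.7 TPM in CC (limma, adjusted p = 0.00384), and SRI (sorcin) fell from 61.8 to 27.7 TPM (adjusted p = 0.0107). RCN1, which encodes a protein of the endoplasmic reticulum, rose from 56.8 to 103 TPM (adjusted p = 0.0118), and EHD1 fell from 34.6 to 16.9 TPM (adjusted p = 0.0325), which held in 2 of 9 fits with a library left out. The count of 5 in CC was 1 without CC replicate 3.

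The transcripts whose levels across the 9 libraries were most like those of S100A9 were CFB (Pearson r = 0.995), C3 (0.992), CEBPD (0.992), AC114801.3 (0.991) and NFKBIA (0.989). S100A9 was used because its condition means span the widest range of the members. The 9 points share 3 conditions, so r describes mostly the step from MC to the stromal libraries, and it says nothing of shared control. CFB and C3, both of the alternative complement pathway, averaged 4.68 and 4.13 TPM in MC, 244 and 193 TPM in CMed and 212 and 158 TPM in CC. NFKBIA, the inhibitor of NF-kB, averaged 93.9 TPM in MC, 307 in CMed and 338 in CC.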

How the data were processed

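The authors sequenced stranded total RNA of T47D in 9 libraries (MC, CC and CMed, 3 each), with paired reads of 100 bases. Trim Galore 0.5.0 and STAR 2.6.0 are named in the submitters' processing notes. For the counting program, genome build and annotation, the name is not given in the sources used here. The deposited values, 1 table of 28624 rows, were read as the natural log (ln) of TPM plus 1, since the libraries then sum to 884208 to 909618. No counts were analysed here, so the counting error behind a value is unknown, and replicates give the precision. Rows named by RNA families (160) were left out and rows of repeated symbols (481) summed, which left 27635 symbols.

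Genes at 0.5 TPM or more in 3 or more libraries (16696) were tested on log2(TPM + 1) with limma 3.58.1 in R 4.3.3 (all 9 libraries, 1 coefficient per condition, intensity trend, robust), and Python 3.11.15 did the rest. The fit was also run on simulated normal values with 1 spread per gene. These held no outlying library such as MC replicate 2, so that run does not speak for these data. Coordinates come from GENCODE 29 (GRCh38), promoters from RefSeq. The members and gene lists were chosen with earlier results of these data known. Genes named are the members, other tested S100 genes, up to 4 per list by lowest adjusted p in CC against MC with ANXA1 and ANXA2, markers, and the 5 genes most like S100A9. LTF, PGLYRP4, NUCB2, IQGAP1 and the genes below the filter were named after their values were seen. Some results of the lists are not reported here. Alternatives were other pseudocounts, scalings, filters and calls, only 2 conditions, a replicate block, log2 reading, the largest row per symbol, and each library left out.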

Additional observations from a re-analysis of the deposited data

How the results depend on the processing

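S100A8, S100A9 and S100P were higher past the threshold in CC against MC under all 21 alternatives. In CMed against MC this held for S100A8 and S100A9 under all 21 and for S100P under 20, the exception being a fit of the 2 conditions alone. Log2 differences ranged from 3.95 to 6.18 for S100A8, from 3.97 to 5.93 for S100A9 and from 2.28 to 3.77 for S100P in CC, the lowest with the values read as log2. The count of members called lower was 0 and became 1 (S100A10) with the replicate number as a block in CC and in CMed. Leaving out a library gave 0 to 1 in CC and 0 to 2 in CMed, the highest both without MC replicate 2, with S100A13 as the added member in CMed. Deviations of same-numbered libraries from their condition means correlated at r from -0.04 to 0.11 over 9 pairs, and at -0.12 to 0.14 for other numbers. With 3 libraries per condition these values cannot decide whether the numbers pair the samples. The replicate block changed no other call of a member.

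Counts over all tested genes changed with these settings too. The members were chosen by values of these libraries, so their calls are not weighed against these counts. Genes called in CC against MC numbered 833, 520 without a filter, 319 with the 2 conditions alone, 509 with the block, 131 with a log2 change of at least 2, and 244 to 1727 with a library left out. For CMed against MC these were 231, 125, 111, 102, 75 and 72 to 1013, and for CC against CMed 62, 28, 97, 22, 18 and 15 to 208. In each comparison the highest count was the one without MC replicate 2. Relative log expression scaling moved the median of all genes by 0.10 in CC and 0.11 in CMed, and the higher share of calls from 43.1% to 59.3% and from 51.1% to 73.4%. Upper quartile scaling gave 55.7% and 66.8%, and leaving out mitochondrial and ribosomal RNA 55.4% and 63.0%. The cause of these shifts was not tested. Low members such as S100A7 and S100A14 are limited by a depth that the values do not give.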
